A study of Homo sapiens with 4 samples.

Results

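The clustered histone genes are the genes of the HIST1, HIST2, HIST3 and HIST4 loci, taken here as every gene whose name in the deposited tables begins with HIST1H to HIST4H. The rule found 61 of 16489 genes, with 4 of class H1, 16 of H2A, 16 of H2B, 12 of H3 and 13 of H4. HIST1, on chromosome 6, holds 44 of them, HIST2 on chromosome 1 holds 13, HIST3, also on chromosome 1, holds 3, and HIST4 on chromosome 12 holds 1. Single members were chosen by name, but the group itself was selected on its read shares in pulldown and total RNA and on its miR-34a over control ratios, so the values below are a description.

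All 4 libraries come from HEK293T, a line of human embryonic kidney origin transformed with adenoviral DNA and expressing SV40 large T antigen; these viral transcripts, which define the line, were not analysed here. The groups are a pulldown with biotin-labelled miR-34a, its control pulldown (NC in the labels), total RNA of cells given a miR-34a mimic, and total RNA of cells given the NC mimic. Mimics are synthetic duplexes that raise the amount of a microRNA in cells. A pulldown collects the RNA that stays with the labelled microRNA. The series set these approaches to target finding side by side. With 1 library in each group there is no replicate check on any difference, and p-values are not given. No dose, exposure time or selection of polyadenylated RNA is stated in the labels.

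Histones package DNA. Pairs of H2A, H2B, H3 and H4 form the core of the nucleosome, and H1 binds the DNA that enters and leaves it. The clustered genes are replication-dependent: they are transcribed mainly in S phase, most lack introns, and their mRNAs usually end in a conserved stem-loop bound by SLBP in place of a poly(A) tail. Some of them can also give polyadenylated transcripts. Replacement variants such as H2A.Z, H3.3 and H1.0 are encoded outside the clusters and have ordinary polyadenylated mRNAs.

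The microRNA supplied in both approaches is miR-34a-5p, encoded on the minus strand of chromosome 1 (chr1:9151735-9151756, GRCh38.p14). Its sequence from RefSeq is shown because every comparison turns on it, with the seed (bases 2 to 8), the stretch that pairs with target mRNAs, in capitals. Histone transcript sequences were not analysed here, so no match to the seed was sought in them.
hsa-miR-34a-5p: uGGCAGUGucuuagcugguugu

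The first comparison asks how abundant these transcripts were in each kind of library. In the pulldown libraries they were among the commonest RNAs, and in the total RNA libraries few reads fell on them. They took 46059 of 546180 reads in the miR-34a pulldown, 8.43% (exact binomial 95% interval 8.33% to 8.54%), and 27080 of 306996 reads in the control pulldown, 8.82% (8.68% to 8.96%). In total RNA they took 6364 of 42679778 reads with the miR-34a mimic, 0.0149% (0.0144% to 0.0154%), and 10838 of 45493090 reads with the control mimic, 0.0238% (0.0232% to 0.0245%). The share in pulldown RNA was 566-fold that in total RNA for the miR-34a libraries and 370-fold for the control libraries. The excess was present with the control pulldown as well as with miR-34a. Selection of polyadenylated RNA is not stated for these libraries, and whether library preparation contributes to the gap was not tested.

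The replacement variants did not show this gap. The 11 listed in the pulldown took 0.303% of reads in the miR-34a pulldown and 0.307% in the control pulldown. The 13 listed in total RNA took 0.314% with the miR-34a mimic and 0.294% with the control mimic. H2AFX, which encodes the variant phosphorylated at DNA breaks and whose mRNA is known in both stem-loop and polyadenylated forms, was the variant with the highest pulldown over total RNA ratio. Its log2 ratio of read shares was 2.07 in the miR-34a libraries and 2.24 in the control libraries, whereas the other variants lay between -1.53 and -0.13 in the miR-34a libraries and between -2.24 and 0.56 in the control libraries.

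**Figure D1:**
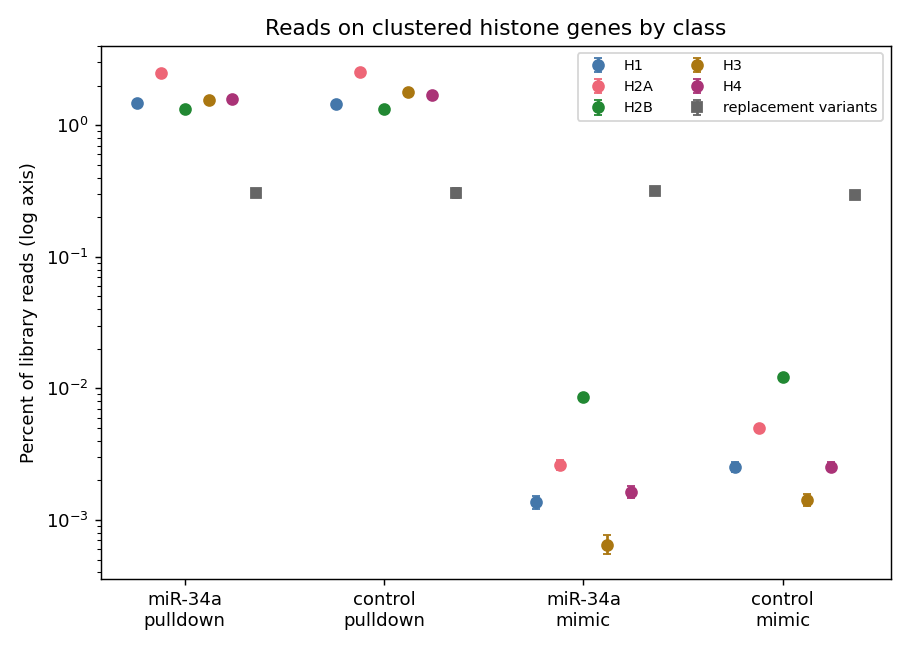
Percent of each library's reads on the histone classes H1, H2A, H2B, H3 and H4 and on the replacement variants, on a log axis, with exact binomial 95% intervals for counting error. Every class lies between 1.32% and 2.54% in both pulldown libraries and between 0.000651% and 0.0123% in both total RNA libraries, while the replacement variants stay between 0.294% and 0.314%.

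All 5 classes shared the excess, but not equally. The summed H3 reads had the largest pulldown over total RNA fold of the 5 classes, 2382 in the miR-34a libraries and 1262 in the control libraries. In the miR-34a libraries H1 stood at 1070, H4 at 972, H2A at 960 and H2B, the smallest, at 154. In the control libraries H4 stood at 666, H1 at 579, H2A at 508 and H2B, again the smallest, at 107. H2B made up 15.8% of the histone reads of the miR-34a pulldown against 58.0% of those of its total RNA, and 15.0% of those of the control pulldown against 51.7% of those of control total RNA. A single gene accounts for much of this. HIST1H2BK, a gene with an annotated span of 8566 bases on chromosome 6, had 2944 reads in miR-34a mimic total RNA and 4216 in control mimic total RNA, more than any other member. Without it the H2B fold was 599 in the miR-34a libraries and 347 in the control libraries.

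Of genes with at least 20 reads in the pulldown and total RNA libraries together, 0.656% had a pulldown share at least 32-fold higher with an interval that excluded equality in the miR-34a libraries (69 of 10524), and 50 of these were among the 51 members tested. In the control libraries the background was 0.665% (70 of 10521), and 48 of 50 members passed. With a 2-fold minimum 50 of 51 members were higher in the miR-34a libraries, against 6.54% of genes, and 49 of 50 in the control libraries, against 6.93%. Lower by at least 2-fold were 0 members in either, against 21.6% of genes in the miR-34a libraries and 16.2% in the control libraries. The median log2 ratio of members was 10.52 against -0.37 for all genes in the miR-34a libraries, and 10.25 against -0.30 in the control libraries. Ranked by this ratio, members held all of the 20 highest places in the miR-34a libraries and 19 of the 20 highest in the control libraries. Ranked by reads alone, 23 of the 100 genes with most reads in the miR-34a pulldown and 25 of 100 in the control pulldown were members, against 0 of 100 in either total RNA library. Members that are listed had to have a control read, and abundance in these libraries was known when they were proposed, so these counts describe the group and do not test it.

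**Figure D2:**
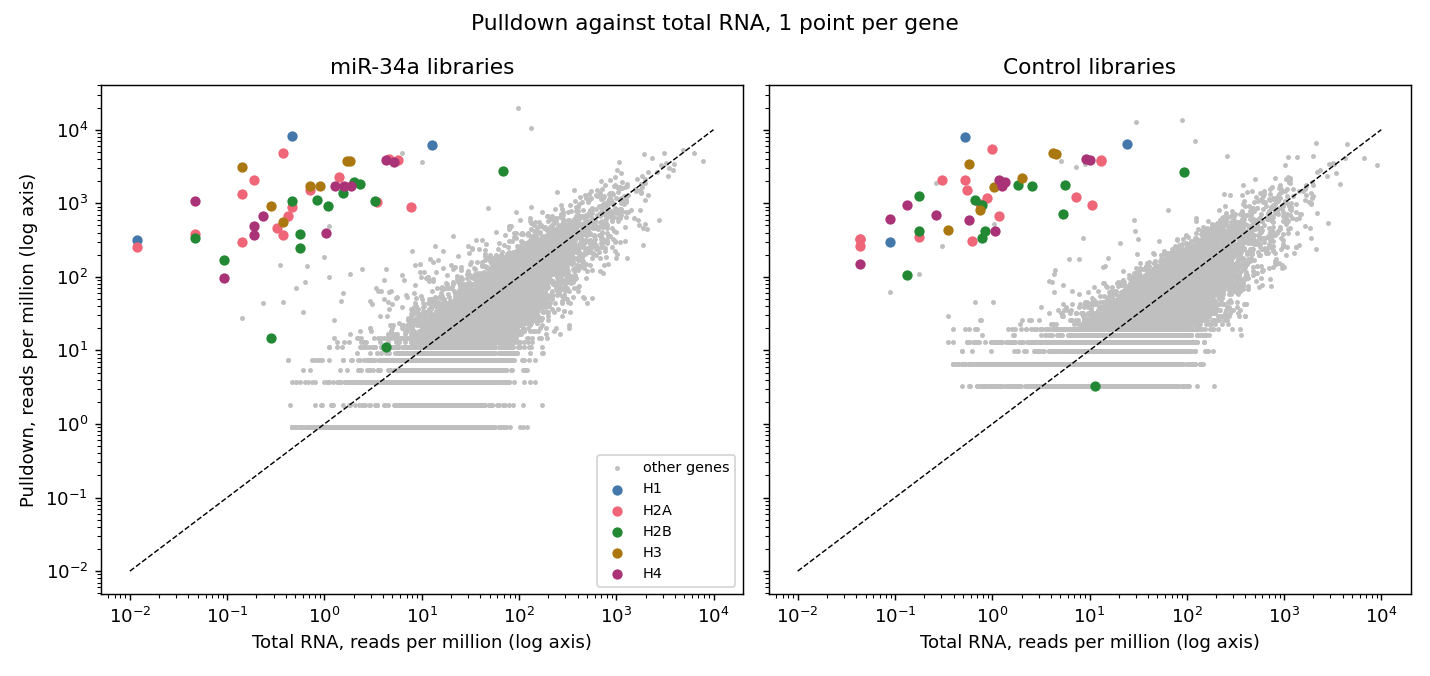
CPM in the pulldown (vertical) against total RNA (horizontal), both on log axes, for the miR-34a libraries on the left and the control libraries on the right, with 1 point per gene and members coloured by class. A library at 0 reads is drawn below the level of 1 read; the dashed line marks equal shares, and nearly all members lie far above it.

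The linker histone genes differed widely among themselves. HIST1H1E, which encodes H1.4, had 4447 reads in the miR-34a pulldown and 2462 in the control pulldown, the most of any member, against 20 reads in miR-34a mimic total RNA and 24 in control mimic total RNA. Its pulldown share was 17375-fold that in total RNA in the miR-34a libraries (log2 14.08 [13.20 to 15.15]) and 15202-fold in the control libraries (13.89 [13.08 to 14.85]). HIST1H1C, which encodes H1.2, had 3392 reads in the miR-34a pulldown against 549 in miR-34a mimic total RNA, a fold of 483, and 1942 in the control pulldown against 1114 in control mimic total RNA, a fold of 258. These H1 genes were therefore close in pulldown RNA and far apart in total RNA. HIST1H1D, encoding H1.3, had 175 reads in the miR-34a pulldown and 92 in the control pulldown. It had 0 reads in miR-34a mimic total RNA, and with 3 reads in their place the fold was 4558. The log2 interval of this ratio began at 10.83 and had no upper limit, so its size is not fixed. HIST1H1B, encoding H1.5, was not listed in the pulldown and had 16 reads with the miR-34a mimic and 8 with the control mimic.

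Among core histones, HIST1H2AG, an H2A gene, had 2618 reads in the miR-34a pulldown against 16 in miR-34a mimic total RNA. The fold was 12786, with a log2 interval of 12.66 to 14.86. It had 1692 reads in the control pulldown against 45 in control mimic total RNA, a fold of 5572 (log2 interval 11.84 to 13.12). HIST1H3B, an H3.1 gene, had 1713 reads in the miR-34a pulldown against 6 in its total RNA. The fold was 22310, with a wide log2 interval of 12.89 to 16.73. It had 1048 reads in the control pulldown against 26, a fold of 5973 (log2 interval 11.76 to 13.46). HIST1H4D, an H4 gene, had 583 reads in the miR-34a pulldown against 2 in its total RNA, a fold of 22778 with a log2 interval of 11.99 to 19.78, so its size is not fixed at this depth. In the control libraries HIST1H4D had 290 pulldown reads against 6. The smallest ratios with protein-coding members were those of HIST1H2BK, HIST3H2A, HIST1H2AC and HIST1H2BD. In the miR-34a libraries their folds were 40.1 for HIST1H2BK, 115 for HIST3H2A, 301 for HIST1H2AC and 322 for HIST1H2BD. In the control libraries they were 28.6 for HIST1H2BK, 89.0 for HIST3H2A, 167 for HIST1H2AC and 133 for HIST1H2BD. Even the lowest of these stood above most genes of the study.

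For the H2B pseudogene HIST2H2BC both counting intervals hold equal shares in pulldown and total RNA. It had 6 reads in the miR-34a pulldown against 184 in miR-34a mimic total RNA, a log2 ratio of shares of 1.35 [-0.95 to 2.94]. It had 1 read in the control pulldown against 518 in control mimic total RNA, a log2 ratio of -1.81 [-11.80 to 1.43]. It lies within the annotated span of HIST2H4B, as do HIST2H2AA4 and HIST2H3A, and strand handling is not given, so reads from overlapping transcripts cannot be told apart. The other pseudogene, HIST2H2BA, had 8 reads in the miR-34a pulldown and 9 in the control pulldown, and 12 with the miR-34a mimic and 8 with the control mimic.

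Several members are near-identical copies whose reads the counting could split. HIST2H2AA3 and HIST2H2AA4 had 2151 and 2082 reads in the miR-34a pulldown and 1164 and 1201 in the control pulldown. HIST2H3A and HIST2H3C had 2040 and 2047 in the miR-34a pulldown, against 1471 and 1437 in the control pulldown. HIST2H4A and HIST2H4B had 1989 and 2113 in the miR-34a pulldown, against 1210 and 1198 in the control pulldown. Copies of a pair were nearly equal in each pulldown library, and all values of single histone genes are uncertain to the extent that coding sequences are shared within a class.

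The second comparison asks whether miR-34a recovered these transcripts above the control pulldown. As a group it did not: the summed reads gave a log2 ratio of miR-34a over control of -0.03 [-0.06 to 0.00], on libraries scaled with TMM factors and with a 95% interval for counting error only. The median of the 49 members with at least 20 reads was 0.00, against 0.11 for all 6253 genes. A gene was called higher or lower where its interval excluded a ratio of 1, a call that 7.08% of genes passed upward and 3.66% downward. Of the members 3 were higher and 7 lower, 6.12% and 14.3%, with a median of 575.5 reads with miR-34a and 295.5 with the control per member but 17 with miR-34a and 9 with the control per gene over all genes; 0 differed by 2-fold with an interval that excluded 1, against 4.83% of all genes upward and 2.13% downward. The 12 other members were 5 with under 20 reads (HIST1H2BE, HIST1H2BI, HIST1H3I, HIST2H2BA, HIST2H2BC) and 7 not listed (HIST1H1B, HIST1H3C, HIST1H3E, HIST1H3J, HIST1H4I, HIST1H4L, HIST3H3).

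**Figure D3:**
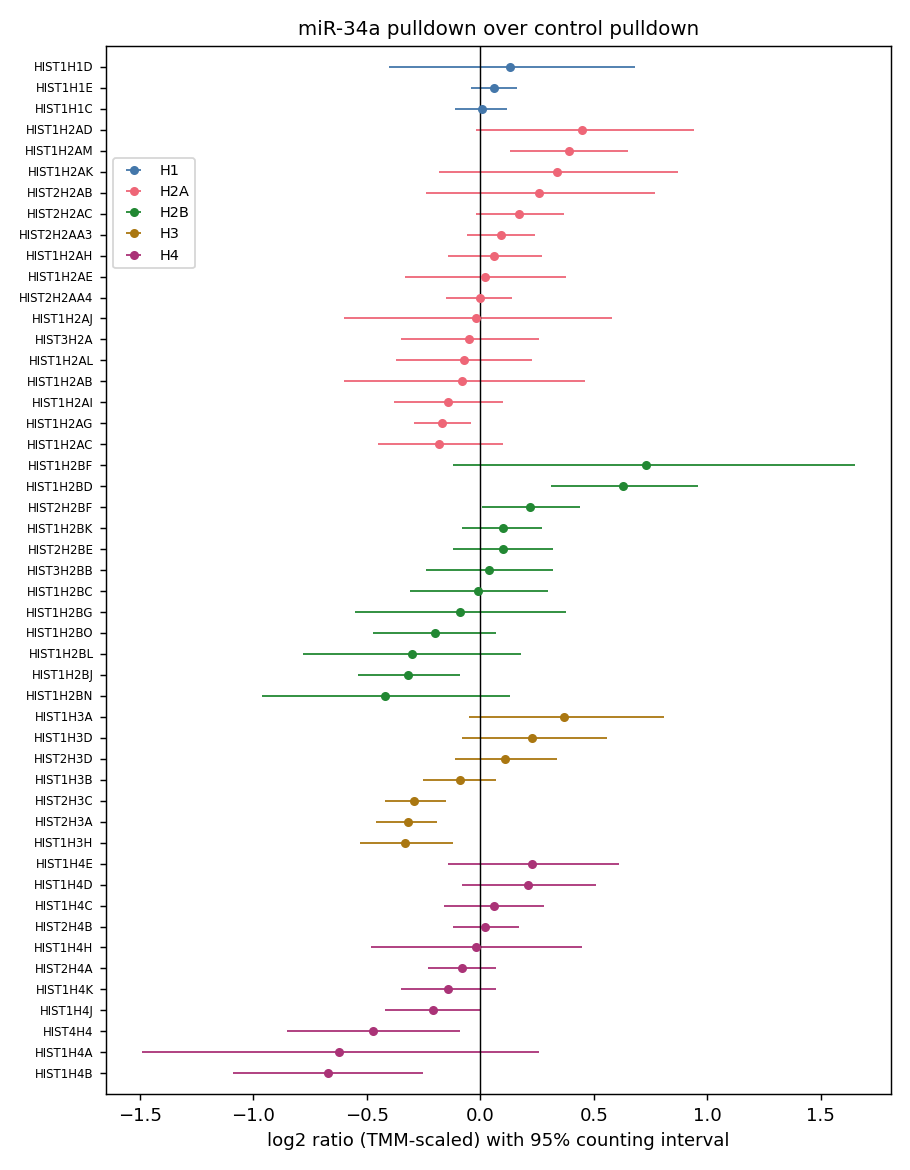
The log2 ratio of miR-34a pulldown over control pulldown for the 49 members with at least 20 reads, by class, with 95% counting intervals and 1 library per group. The ratios run from -0.67 to 0.73, and most intervals cross 0.

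No H1 gene was called in the pulldown. HIST1H1C had a log2 ratio of 0.01 [-0.11 to 0.12], HIST1H1E 0.06 [-0.04 to 0.16] and HIST1H1D 0.13 [-0.40 to 0.68]. Intervals this narrow for HIST1H1C and HIST1H1E bound any difference between these libraries well below 2-fold.

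H2A and H2B held the higher genes. HIST1H2BD had 581 reads with miR-34a and 216 with the control, a log2 ratio of 0.63 [0.31 to 0.96]. HIST1H2AM had 819 reads with miR-34a and 361 with the control (0.39 [0.13 to 0.65]). HIST2H2BF had 1062 with miR-34a and 524 with the control (0.22 [0.01 to 0.44]), a call that was lost on library totals (0.19) and on DESeq2 size factors (0.21). HIST1H2BD has 2 listed transcripts: NM_138720 had 239 reads with miR-34a and 68 with the control, 1.02 [0.46 to 1.61], and NM_021063 had 342 with miR-34a and 148 with the control, 0.41 [0.01 to 0.83]. With 1 transcript kept for every gene, the one with most reads, and the libraries rescaled on those transcripts, HIST1H2BD (NM_021063) stood at 0.36 and was not called. HIST1H2BF, with 92 reads with miR-34a and 32 with the control, had the highest ratio, 0.73, but its interval of -0.12 to 1.65 holds 0.

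Lower genes of these classes were HIST1H2AG, at -0.17 [-0.29 to -0.04], and HIST1H2BJ, at -0.32 [-0.54 to -0.09] with 759 reads with miR-34a and 544 with the control. For the remaining H2A genes the ratios lay within -0.18 to 0.45 and for the remaining H2B genes within -0.42 to 0.10. HIST1H2AD (0.45), HIST1H2AK (0.34), HIST2H2AB (0.26), HIST2H2AC (0.17), HIST2H2AA3 (0.09), HIST1H2AH (0.06), HIST1H2AE (0.02), HIST2H2AA4 (0.00), HIST1H2AJ (-0.02), HIST3H2A (-0.05), HIST1H2AL (-0.07), HIST1H2AB (-0.08), HIST1H2AI (-0.14) and HIST1H2AC (-0.18) were all within counting error. So were HIST1H2BK and HIST2H2BE (0.10 each), HIST3H2BB (0.04), HIST1H2BC (-0.01), HIST1H2BG (-0.09), HIST1H2BO (-0.20), HIST1H2BL (-0.30) and HIST1H2BN (-0.42).

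H3 and H4 held 5 of the 7 lower genes, among them the near-identical copies HIST2H3A and HIST2H3C. With such copies summed, 6 members were lower. The summed H3 reads were 8475 with miR-34a and 5512 with the control, a log2 ratio of -0.18 [-0.24 to -0.11], while H4 stood at -0.07 [-0.14 to 0.00], H1 at 0.04, H2A at 0.01 and H2B at 0.04. HIST2H3A and HIST2H3C held 4087 of the H3 reads with miR-34a and 2908 of those with the control. The H3 ratio without them was not computed. HIST2H3A (-0.32 [-0.46 to -0.19]), HIST2H3C (-0.29 [-0.42 to -0.15]) and HIST1H3H (-0.33 [-0.53 to -0.12]) were the lower H3 genes; HIST2H3A with its copy HIST2H3C gave -0.31 [-0.40 to -0.21]. HIST1H3A (0.37), HIST1H3D (0.23), HIST2H3D (0.11) and HIST1H3B (-0.09) were within counting error. The lower H4 genes were HIST1H4B, with 204 reads with miR-34a and 187 with the control (-0.67 [-1.09 to -0.25]), and HIST4H4, with 269 with miR-34a and 215 with the control (-0.47 [-0.85 to -0.09]). HIST1H4A (-0.62), HIST1H4J (-0.21), HIST1H4K (-0.14), HIST2H4A (-0.08), HIST1H4H (-0.02), HIST2H4B (0.02), HIST1H4C (0.06), HIST1H4D (0.21) and HIST1H4E (0.23) were within it. Deposited RPKM values shift every ratio of this comparison upward; on them 25 members passed as higher and 0 as lower, with a median of 0.27 against 0.38 over all genes, and the median H3 ratio was 0.18 in place of -0.09.

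The third comparison asks how the level of these transcripts in total RNA differed once miR-34a was supplied. The small amount of histone RNA seen there was lower with the mimic: summed reads gave a log2 ratio of -0.65 [-0.71 to -0.59], and -0.84 [-0.92 to -0.75] without HIST1H2BK. Of the 45 members with at least 20 reads, 18 were lower and 1 was higher, 40.0% and 2.22%, against 23.1% and 25.3% of all 14787 genes. Lower by at least 2-fold were 13 members, 28.9%, against 1.03% of all genes, and 1 was higher by as much, against 3.29%. The median of members was -0.53, against 0.00 for all genes. With near-identical copies summed, 15 members were lower, 1 was higher, and the median was -0.47. Members were read at low depth here, with a median of 20 reads in the miR-34a mimic library and 30 in the control mimic library; over all genes the medians were 868 with the miR-34a mimic and 939 with the control mimic. In bulk RNA, fewer cells in S phase and less histone RNA per cell cannot be told apart. Selection of polyadenylated RNA is not stated, so it is not known which forms of histone transcript these reads cover. A change in all forms and a change in polyadenylated forms alone cannot be told apart either.

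Depth sets how many of these can be called. Of the 30 members with at least 50 reads over both mimic libraries, a minimum chosen with earlier results known, 16 were lower, 1 was higher, and the median was -0.60. A depth range that holds all 30, at least 50 and under 10000 reads over both libraries, was set after the values were seen and covers 11873 genes. Their median was -0.01, with 22.7% lower and 23.7% higher. Members lower by at least 2-fold were 11 of 30, against 0.977% of genes in the range, and 1 was higher by as much, against 3.54%.

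**Figure D4:**
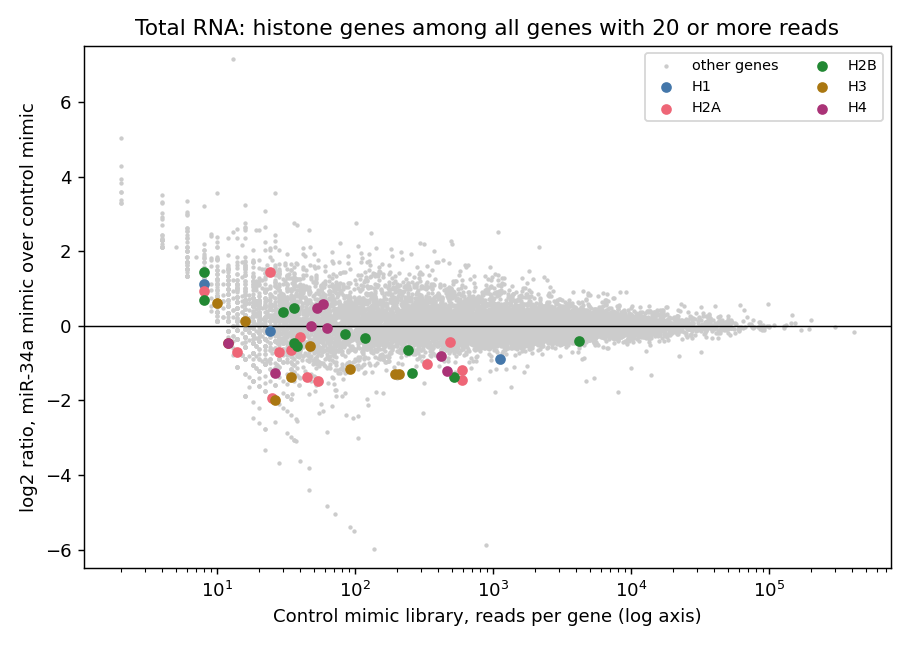
The log2 ratio of miR-34a mimic over control mimic (vertical) against reads per gene in the control mimic library (horizontal, log axis), for genes with at least 20 reads, with members coloured by class. Of the 30 members with at least 50 reads over both libraries, 16 have an interval below 0 and 1 has an interval above 0.

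Of the clusters, the HIST2 genes on chromosome 1 had the lowest summed ratio with the mimic. Their summed reads were 1467 with the miR-34a mimic and 3440 with the control mimic, a log2 ratio of -1.11 [-1.24 to -0.99], against -0.49 [-0.56 to -0.41] for HIST1 and -0.63 [-0.76 to -0.51] for HIST1 without HIST1H2BK. HIST2H2AA3 had 199 reads with the mimic and 596 with the control, -1.47 [-1.81 to -1.13], and HIST2H2AA4 had 241 with the mimic and 592 with the control, -1.18 [-1.50 to -0.87]. HIST2H2BE, an H2B gene with a long annotated transcript, had 98 with the mimic and 256 with the control, -1.27 [-1.77 to -0.78]. HIST2H3A had 72 reads with the mimic and 193 with the control (-1.31 [-1.90 to -0.74]), and HIST2H3C had 78 with the mimic and 207 with the control (-1.29 [-1.86 to -0.75]). HIST2H4A had 222 with the mimic and 421 with the control (-0.81 [-1.15 to -0.47]), and HIST2H4B had 183 with the mimic and 459 with the control (-1.21 [-1.58 to -0.85]). With copies summed, the ratio was -1.32 for HIST2H2AA3 and -1.30 for HIST2H3A, and for HIST2H4A, with 405 reads with the mimic and 880 with the control, the interval was -1.25 to -0.76. The pseudogene HIST2H2BC was lower too, at -1.38 [-1.74 to -1.03]. Apart from HIST2H2BE, the lower HIST2 genes lie close together, between chr1:149832657 and chr1:149861240. They are near-identical copies or, like HIST2H2BC, lie within the HIST2H4B span, so they can share reads. The HIST2 ratio without them was not computed.

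A member of HIST2 went the opposite way. HIST2H2AC, an H2A gene, had 60 reads with the miR-34a mimic and 24 with the control mimic, a log2 ratio of 1.44 [0.43 to 2.54], the only higher member. On deposited RPKM it stood at 0.80 and was not called. HIST2H3D (-0.53), HIST2H2BF (-0.33) and HIST2H2BA (0.70) were within counting error, and HIST2H2AB was under 20 reads.

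In HIST1, the best-covered members were lower. HIST1H1C had 549 reads with the mimic and 1114 with the control, -0.90 [-1.12 to -0.69]. HIST1H2BK, with the read numbers given above, had the narrowest interval of any member, -0.40 [-0.50 to -0.30]. HIST1H2AC had 148 reads with the mimic and 329 with the control (-1.04 [-1.45 to -0.63]). HIST1H2BD had 141 with the mimic and 241 with the control (-0.66 [-1.10 to -0.22]), and HIST1H3H had 38 with the mimic and 92 with the control (-1.16 [-2.01 to -0.36]). HIST1H2AE (-1.47), HIST1H2AG (-1.37), HIST1H2AI (-1.94) and HIST1H3B (-2.00) were lower on 54 or fewer control reads, and their intervals reach up to between -0.34 and -0.07. In HIST3, HIST3H2A was lower at -0.43 [-0.73 to -0.14], with 330 reads with the mimic and 483 with the control. HIST1H2BD differed between its transcripts: NM_021063 had 16 reads with the mimic and 75 with the control, -2.11 [-3.42 to -0.99], and NM_138720 had 125 with the mimic and 166 with the control, -0.29 [-0.79 to 0.20].

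Other members had ratios within counting error. The lowest of these were HIST1H3D (-1.39) and HIST1H4E (-1.26), and the highest were HIST1H2BO (1.44), HIST1H1B (1.12) and HIST1H2AD (0.92), all with 8 to 34 control reads. HIST1H4C, which had 80 reads with the mimic and 58 with the control, stood at 0.58 [-0.14 to 1.32], HIST1H4J at 0.48 [-0.30 to 1.27], HIST1H4K at -0.06 [-0.85 to 0.73] and HIST1H4H at -0.01 [-0.91 to 0.89]. HIST1H2BC (0.47), HIST3H2BB (0.38), HIST1H3J (0.60), HIST1H3A (0.12), HIST1H1E (-0.15), HIST1H2BJ (-0.23), HIST1H2AM (-0.30), HIST1H3E (-0.47), HIST4H4 (-0.47), HIST1H2BN (-0.47), HIST1H2BG (-0.55), HIST1H2AL (-0.65), HIST1H2AK (-0.69) and HIST1H2AH (-0.69) completed the measured members. The 14 members under 20 reads and the 2 not listed in total RNA (HIST1H2BI and HIST1H3I) have no ratio.

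**Figure D5:**
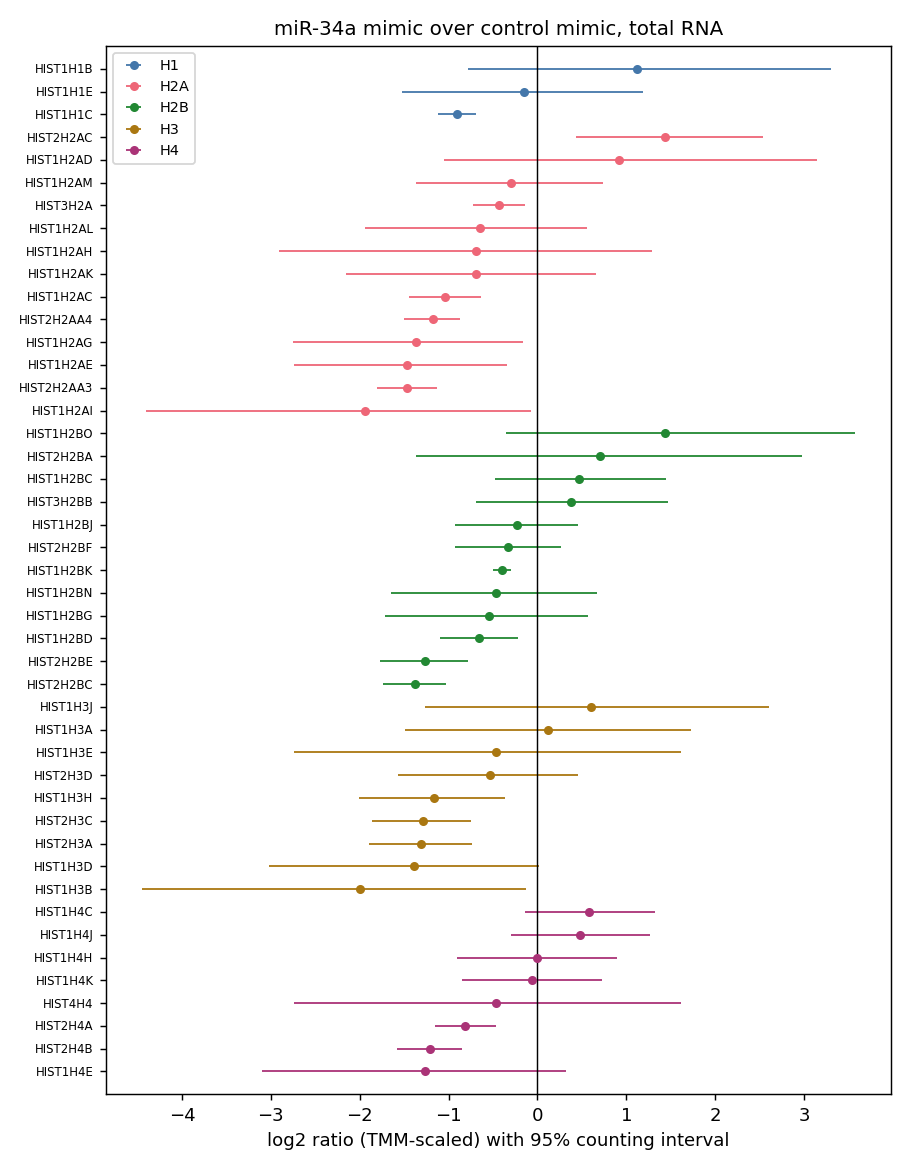
The log2 ratio of miR-34a mimic over control mimic in total RNA for the 45 members with at least 20 reads, by class, with 95% counting intervals and 1 library per group. Of them 18 have an interval below 0 and HIST2H2AC alone has an interval above 0.

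By class, summed reads put H3 lowest with the mimic, at -1.10 [-1.40 to -0.81] on 278 reads with the mimic and 647 with the control. H2A stood at -0.92 [-1.06 to -0.77], H1 at -0.86 [-1.07 to -0.65], H4 at -0.62 [-0.82 to -0.43] and H2B at -0.48 [-0.57 to -0.40]. Without HIST1H2BK, H2B was at -0.77 [-0.96 to -0.59], so that the intervals of H2B, H2A, H1, H4 and H3 overlap. The copies HIST2H3A and HIST2H3C held 150 of the 278 H3 reads with the mimic and 400 of the 647 with the control. The H3 ratio without these copies was not computed. H1 rests almost wholly on HIST1H1C. The lower H4 value rests on the HIST2H4A and HIST2H4B copies: without them H4 had 289 reads with the mimic and 279 with the control, 0.17 [-0.18 to 0.51]. The called counts were 7 of 13 lower and 1 higher for H2A, 4 of 12 lower for H2B, 4 of 9 for H3, 2 of 8 for H4 and 1 of 3 for H1.

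Both comparisons together cover 40 members. Of the 17 of these that were lower with the mimic, 12 were within counting error in the pulldown, 4 were lower there too (HIST1H2AG, HIST1H3H, HIST2H3A and HIST2H3C), and 1, HIST1H2BD, was higher. Histone mRNAs thus filled the miR-34a pulldown and the control pulldown alike, and of the 17 members lower with the mimic HIST1H2BD alone was called higher in the pulldown. The deposited tables named for the UTR, which hold 2880 pulldown genes and 4126 mimic genes, contain 0 of the 61 members.

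Neighbouring H2A and H2B genes often face away from each other across a short shared promoter. Among the 54 members with a RefSeq promoter window 9 such pairs were found, with opposite strands and gene starts 194 to 248 bases apart. Pairs with a member lacking a window were not sought. HIST1H2BK and HIST1H2AH, whose annotated spans lie next to each other, were not among the pairs found. The octamer, a motif known from H2B promoters and bound by the transcription factor OCT1 (POU2F1), was sought as ATTTGCAT on both strands in the RefSeq promoter windows (250 bases before to 50 after the gene start), which matched 54 of 61 members. It was in 10 of 14 H2B and 10 of 15 H2A windows, 71.4% and 66.7%, and in 1 of 10 H3, 0 of 4 H1 and 0 of 11 H4 windows, against 1.77% of all 35116 windows. A pair's windows overlap, so the H2A and H2B matches are in part the same letters. CCAAT was in every H1, H2A, H2B and H3 window but in 2 of 11 H4 windows, 18.2%, against 34.6% of all windows. Such matches describe the sequence and are not evidence of binding.

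The octamer is shown in capitals within 30 bases of the promoter for the H2B genes of 2 of these pairs and for HIST1H2BK, the member with most total RNA reads. The stretches run 5′ to 3′ on the strand of the gene, minus for all 3, at chr1:149886710-149886739, chr6:26124031-26124060 and chr6:27146886-27146915 (GRCh38.p14, RefSeq).
HIST2H2BE: tcggagccctaATTTGCATaaggtggttat
HIST1H2BC: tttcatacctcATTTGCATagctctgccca
HIST1H2BK: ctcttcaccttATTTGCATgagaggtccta

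Of the 7 pairs found that had both total RNA ratios, 4 had ratios of opposite sign. HIST2H2AC and HIST2H2BE, with starts 236 bases apart, had log2 ratios of 1.44 and -1.27 with the mimic, and neither interval holds 0. HIST1H2AC and HIST1H2BC stood at -1.04 and 0.47, HIST1H2AM and HIST1H2BO at -0.30 and 1.44, and HIST3H2A and HIST3H2BB at -0.43 and 0.38. In each of these 3 pairs 1 or both intervals hold 0, and no difference within a pair was tested. In the other 3 pairs both ratios were below 0: HIST1H2AE and HIST1H2BG, HIST1H2AG and HIST1H2BJ, and HIST1H2AK and HIST1H2BN. Again 1 or both intervals of each pair hold 0. The neighbours HIST1H2AH and HIST1H2BK, not among the pairs found, were also below 0, at -0.69 [-2.91 to 1.29] and -0.40 [-0.50 to -0.30]. In the pulldown the HIST2H2AC and HIST2H2BE ratios were 0.17 and 0.10, and both genes were well read, with 1241 and 1002 reads in the miR-34a pulldown against 634 and 539 in the control pulldown.

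The machinery that makes and ends histone mRNAs was described from a list of 34 genes, which includes ARS2 and SRRT as names of the same gene; 33 were measured with the mimic. Of these 13 were lower and 7 higher, beside 23.1% and 25.3% of all genes, with a median of -0.05. The shares of all genes are not matched for depth, and deeper reads let smaller shifts be called. The farthest from 0 were CCNE2 and NPAT. CCNE2, a cyclin that with CDK2 starts S phase, had 733 reads with the mimic and 1224 with the control (-0.62 [-0.81 to -0.43]). NPAT, the CDK2 substrate that switches on histone genes, had 891 with the mimic and 1397 with the control (-0.53 [-0.71 to -0.36]). LSM10, a subunit of the U7 snRNP that cleaves histone pre-mRNA, followed on the higher side (1748 with the mimic and 1439 with the control, 0.40 [0.25 to 0.54]). SLBP was at -0.12 [-0.21 to -0.04] and CASP8AP2, which encodes the NPAT partner FLASH, at -0.33 [-0.44 to -0.21]. CCNE1, also a cyclin on the list, was within counting error at -0.04 [-0.21 to 0.13]. In the pulldown 4 of 25 passed as higher and 1 as lower (backgrounds 7.08% and 3.66%), and their median was 0.66. ATR, the replication checkpoint kinase, had 115 reads with miR-34a and 7 with the control (3.24 [1.72 to 5.34]). The other higher genes were CCNE1 (1.82 [0.36 to 3.66]), CSTF1 (1.79 [0.01 to 4.19]) and CDK2 (1.20 [0.09 to 2.49]). The lower gene was UPF1 (-0.62 [-1.02 to -0.23]). SNRPF (1.90 [-0.24 to 5.09]) and SNRPG (1.87 [-0.61 to 5.83]), Sm proteins, were within counting error.

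Of 12 replacement variants measured with the mimic, 6 passed as higher and 2 as lower, against 25.3% and 23.1% of all genes, and their median was 0.07. Here too the shares of all genes are not matched for depth. H1F0, which encodes H1.0, a linker histone of resting and differentiating cells, had 11294 reads with the mimic and 7334 with the control, 0.74 [0.68 to 0.80]. CENPA, the centromeric H3, stood at 0.40 [0.24 to 0.55] and H1FX at 0.33 [0.28 to 0.39]. H3F3A, an H3.3 gene, was lower at -0.22 [-0.27 to -0.17], while H3F3B, which encodes the same protein, was higher at 0.21 [0.18 to 0.24]. On deposited RPKM, which lowers every mimic ratio, 1 variant was higher and 10 lower. In the pulldown H3F3A, with 110 reads with miR-34a and 20 with the control, was the only variant called, at 1.66 [0.68 to 2.80]; H1F0 was at 0.94 [-0.28 to 2.34] and CENPA at -0.80 [-2.70 to 1.11].

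Histone chaperones, which carry histones to and from DNA, were lower more often than higher with the mimic, 17 of 29 against 3 (all genes 23.1% lower and 25.3% higher), with a median of -0.09. These backgrounds are not matched for depth, and small shifts are called in well-read genes. NPM1, with 54400 reads with the mimic and 60675 with the control, was lower at -0.04 [-0.06 to -0.02]. The median gene had 868 reads with the mimic and 939 with the control. NAP1L2 had 2 reads with the mimic and 46 with the control (-4.41 [-9.77 to -1.78]), and NAP1L3 had 38 with the mimic and 142 with the control (-1.78 [-2.60 to -1.04]). For RBBP4, a subunit of the chromatin assembly factor CAF-1, the reads were 9112 with the mimic and 13405 with the control (-0.44 [-0.49 to -0.39]). In the pulldown 5 of 25 were higher and 1 lower (all genes 7.08% and 3.66%). NASP, a carrier of H3 and H4, had 57 reads with miR-34a and 9 with the control (1.87 [0.42 to 3.70]). DAXX, the H3.3 chaperone, had 125 with miR-34a and 27 with the control (1.41 [0.55 to 2.38]), and NPM1 had 357 with miR-34a and 79 with the control (1.38 [0.88 to 1.92]). NPM1 has processed pseudogenes that can share reads.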

How the data were processed

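The authors deposited whole-number read counts per RefSeq transcript, not normalized, with an RPKM value beside each count. Bowtie2, edgeR and the build hg38 are named per the submitters' processing notes; their roles, filters, strand handling and treatment of multi-mapping reads: not given in the sources used here. Both tables have a lowest control count of 1, so a transcript needed a control read to be listed. The worth of 1 read in deposited RPKM, miR-34a over control, was 0.6941 in both tables, so its million-read factor is not that of each library, and RPKM served only as an alternative scaling. Library totals were 546180 (miR-34a pulldown), 306996 (control pulldown), 42679778 (miR-34a mimic) and 45493090 reads (control mimic).

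Counts were summed per gene name, with names turned into dates resolved through accessions, and scaled with TMM factors (edgeR 4.0.16, R 4.3.3). Pulldown and total RNA were compared on library totals. Ratios required 20 reads over both libraries compared, and a count of 0 was replaced by 3 reads. Intervals are exact conditional binomial (scipy 1.17.1, 95%), computed on counts divided by 2, because 89.5% and 80.3% of members' counts in miR-34a and control mimic total RNA were even, as pairs counted as 2 reads would be. This was 54.5% and 50.0% in the pulldown, where halving widens the intervals. They cover counting error only; reads carry no molecular identifiers.

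Deposited RPKM does not use transcript lengths throughout, so levels were not compared between genes per length; ratios compare the same gene. Accessions of all 61 members matched the GRCh38.p14 RefSeq table. Named genes were every member with at least 20 pulldown reads, the 3 highest and lowest mimic ratios and the 2 best-read members per class, and the 3 list members farthest from 0; other genes were chosen for naming after seeing their values. The members, lists and this rule were chosen with earlier results of these data known. Alternatives were library totals, DESeq2 1.42.0 size factors, deposited RPKM, other read minimums, counts not halved, a 99% interval, and the transcript with most reads. Sums of near-identical copies, a 2-fold minimum and a minimum of 50 control reads were unplanned alternatives.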

Additional observations from a re-analysis of the deposited data

Results flagged for a closer look

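HIST1H2BD was picked out because its ratios lay on opposite sides of 0 in the pulldown and in total RNA, with both counting intervals excluding 0. The pulldown log2 ratio was 0.63 [0.31 to 0.96]. In total RNA the ratio of the mimics was -0.66 [-1.10 to -0.22], a difference of 1.29. The difference was not tested, since each group has 1 library. Its transcript NM_021063 alone stood at 0.41 [0.01 to 0.83] in the pulldown and -2.11 [-3.42 to -0.99] in total RNA. With the transcript with most reads kept for every gene and the libraries rescaled, the values were 0.36 in the pulldown (NM_021063) and -0.30 in total RNA (NM_138720), and neither was called.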

How the results depend on the processing

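No paired analysis was possible because each group has 1 library; for the same reason no replicate was left out and no DESeq2 or edgeR test was run. Of 285 values recomputed, 238 stayed within the limits set, 35 moved, 7 lost a call, 5 gained one and no called value reversed. In all, 10 of the 285 changed sign. Of the 238, 6 did so, all pulldown medians of a class or cluster that were within 0.08 of 0 as first reported. On deposited RPKM those of H4, HIST1 and HIST3 stood at 0.19, 0.25 and 0.26. On deposited RPKM in the pulldown, 25 members were higher and 0 lower, and medians were 0.33 for H1, 0.18 for H3, 0.36 for HIST2 and 0.27 for members with a deposited length of 700 bases or more; histone mRNA processing genes had 7 higher and 0 lower, replacement variants 2 higher and chaperones 0 lower. On deposited RPKM with the mimic, 0 members were higher and medians were -1.84 for HIST2 and -1.68 for the longer members; histone mRNA processing genes had 0 higher and 33 lower, replacement variants 1 and 10, and chaperones 0 and 29. Each of the 4 scalings, RPKM included, adds its own constant to every ratio of a comparison. Members therefore stood 0.11 below the median gene in the pulldown and 0.53 below it with the mimic under each of them. That sameness is fixed by construction and is no check of these values. On library totals 2 chaperones were lower in the pulldown and 5 replacement variants lower with the mimic. Without halving, 9 members were higher and 11 lower in the pulldown and 3 higher with the mimic. With the transcript with most reads 1 member was higher in the pulldown; with a 2-fold minimum 0 were higher and 0 lower there. A minimum of 50 control reads alone leaves out HIST2H2AC because its control count is the low one, so 0 members were higher with the mimic; a minimum of 50 reads over both libraries kept it, with 16 lower and 1 higher. Without the 20 genes with most reads in either control library, members among them included, the share on members was 4.91% in the miR-34a pulldown, 5.09% in the control pulldown, 0.0120% with the miR-34a mimic and 0.0170% with the control mimic. Low counts in total RNA limit single members: most have under 50 reads there.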
